A study of Bombyx mori with 4 samples.

Results

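The short interspersed elements (SINEs) of the silkworm were examined in total RNA from BmN4 cells, a cell line of cultured germ cells derived from the silkworm ovary. Members were all sequences annotated as transposons in the deposited table whose class was written as SINE, with no limit on expression. These were 16 of the 18596 sequences in the table and 16 of its 4296 transposons. Cells had received siRNA by electroporation, against luciferase in the control (Luc KD) and against Siwi in the knockdown (Siwi KD), with 2 libraries in each condition. The comparison addresses how the level of SINE RNA differs when Siwi is depleted. No genotype other than the RNAi treatment distinguished the conditions. Neither the germ cell identity of the line nor the depletion of Siwi mRNA could be checked here, since none of the 16880 gene models was paired with a gene name (0 matches in the reference table).

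SINEs are short retrotransposons that encode no protein. They are typically derived from tRNA or other small RNA genes, are transcribed by RNA polymerase III from an internal promoter, and rely on the reverse transcriptase of LINEs to be copied into new sites. Bm1 is the best known SINE of the silkworm and is present in very many copies in its genome. Siwi is a PIWI protein of the silkworm that, loaded with a piRNA, cleaves complementary transposon transcripts in the cytoplasm. Copies of a SINE can also lie inside longer transcripts, and the values below count reads that match the element in the sense direction, whatever transcript carried them.

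The authors merged the replicates, so the table holds 1 read count and 1 RPKM value (reads scaled to the length of the sequence and to the number of genome-mapped reads) for each sequence and condition. A difference between the conditions computed from this table therefore has no replicate check, and no test was run on it and no p-value is given. Each value below is the authors' merged value. In all, 77350240 reads were counted in Luc KD against 84961588 in Siwi KD. Since every count was even, counts were taken as read pairs, and 95% intervals were computed from the number of pairs. They cover counting error only, and reads that match several similar elements are not independent. In RNA from whole cultures, fewer cells that carry a transcript and less of it per cell cannot be told apart.

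The 16 SINEs received 69094 reads in Luc KD (0.0893% of all that were counted) against 65916 in Siwi KD (0.0776%). By the class and subclass written in the table, Bm1 was the only member of the subclass Bm1 and BmSE the only one of the subclass tRNA. A further element was placed under tRNA-CR1, where CR1 is the name of a LINE clade. The subclass SBTE held Bm1-450bp, Hikikomori, Tenshi and Yaocho, and the other 9 members had no subclass. Their lengths ran from 271 nt for BmSE to 5851 nt for Yaocho, with a median of 578 nt. Yaocho was far longer than a SINE usually is, and the next longest, Tenshi, had 1360 nt. Yaocho was nevertheless kept, because the class in the table was used as given.

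Several SINEs were well expressed by the limit used in the study. RPKM was above 10 in at least 1 condition for 8 of the 16 SINEs. Over all sequences 16.2% passed this limit, and over all transposons 9.05%. The shares were 9.65% for the 259 LINEs, 22.6% for the 146 LTR transposons and 27.0% for the 122 DNA transposons. Of the 8 expressed SINEs, 6 were above the limit in both conditions, BmSE was above it only in Luc KD and Amanoya only in Siwi KD.

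Bm1 was the most abundant SINE by a wide margin. It is 354 nt long and had 42578 reads in Luc KD, which gave 984 RPKM with an interval of 971 to 997. In Siwi KD it had 34690 reads, which gave 755 RPKM with an interval of 744 to 766. Bm1 therefore had a lower level in Siwi KD, and the intervals were far apart. The ratio of Siwi KD to Luc KD was 0.767 (0.752 to 0.783), a difference of -229 RPKM.

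In Luc KD, Bm1 had rank 4 by RPKM among the 1716 curated transposons, those listed by name from an earlier collection, and rank 51 among all 18596 sequences. In Siwi KD its rank was 5 among the curated transposons and 61 among all sequences. Among all 4296 transposons, which include gene models, Bm1 had rank 11 in Luc KD against 13 in Siwi KD. Among the transposons with a class of LINE, SINE, LTR or DNA, only the LINEs R2Bm (4317 RPKM) and SART1 (1034 RPKM) were higher in Luc KD. R2Bm inserts into ribosomal RNA genes and SART1 into telomeric repeats. The place of Bm1 was lower by reads, since it is short, with rank 14 among the curated transposons in Luc KD and rank 23 in Siwi KD. Of the 3834 protein-coding genes of the same length range as the expressed SINEs (271 to 834 nt), 28 had a higher RPKM than Bm1 in Luc KD against 31 in Siwi KD.

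SINE-1_BM, of 414 nt and without a subclass, was the next most abundant member. It had 12076 reads and 239 RPKM (233 to 245) in Luc KD, and 10918 reads and 203 RPKM (198 to 209) in Siwi KD. Like Bm1 it was lower in Siwi KD, by a smaller factor, with a ratio of 0.852 (0.821 to 0.883). The level of Bm1 over that of SINE-1_BM was 4.12 in Luc KD against 3.72 in Siwi KD. These 2 elements were thus the highest in both conditions, and together they made up 83.7% of summed SINE RPKM in Luc KD against 75.4% in Siwi KD.

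**Figure D1:**
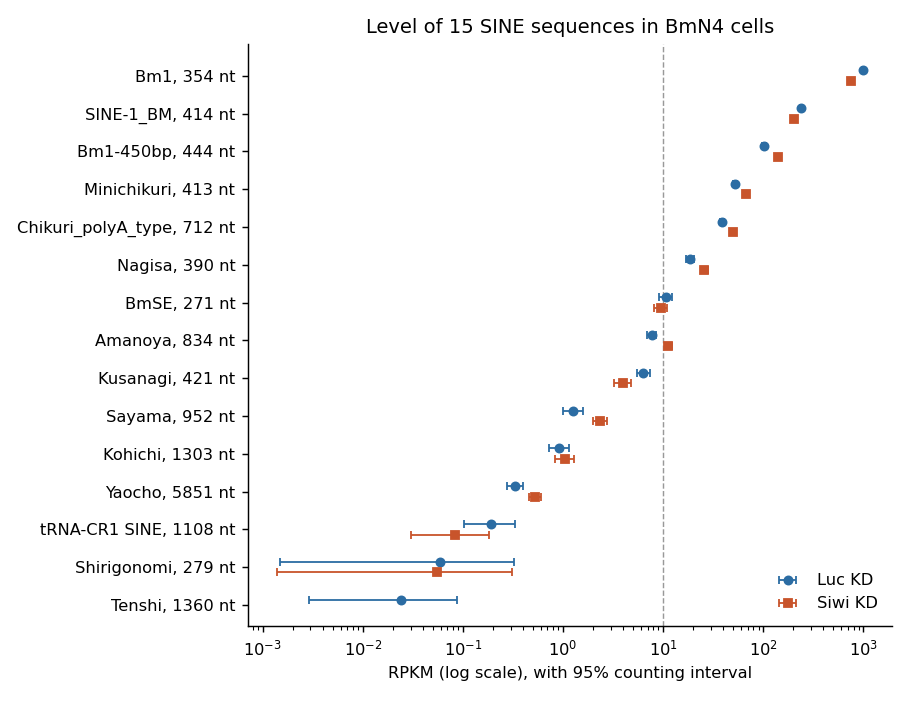
Level of each SINE with a read, in RPKM on a log scale, in Luc KD (blue circles) and Siwi KD (orange squares). Bars are 95% counting intervals and the dashed line is 10 RPKM. Bm1 stands at 984 and 755 RPKM, the level spans more than 4 orders of magnitude, and 6 elements lie above the line in both conditions. Tenshi had no read in Siwi KD and is drawn for Luc KD only, and Hikikomori had no read and is not drawn.

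Below the leading pair, 4 elements above 10 RPKM in both conditions were all higher in Siwi KD. Bm1-450bp (444 nt, subclass SBTE) had 5542 reads and 102 RPKM (98.4 to 106) in Luc KD, and 8174 reads and 142 RPKM (138 to 146) in Siwi KD. The ratio was 1.39 (1.32 to 1.46), so that this element, which shares part of its name with Bm1, stood on the other side of 1. The level of Bm1 over that of Bm1-450bp was 9.64 in Luc KD against 5.32 in Siwi KD. The ratio of these was 0.552, with a counting interval of 0.524 to 0.582. Similar elements can share reads, and for the pair as a whole summed RPKM was 1086 in Luc KD against 897 in Siwi KD, a ratio of 0.826 (0.811 to 0.841).

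Minichikuri and Chikuri_polyA_type, whose names are related, had nearly the same ratio. Minichikuri (413 nt) had 2634 reads and 52.2 RPKM (49.4 to 55.1) in Luc KD, and 3606 reads and 67.3 RPKM (64.2 to 70.5) in Siwi KD. Chikuri_polyA_type (712 nt) had 3354 reads and 38.5 RPKM (36.7 to 40.4) in Luc KD, and 4580 reads and 49.6 RPKM (47.6 to 51.6) in Siwi KD. The ratio was 1.29 for each, with intervals of 1.20 to 1.38 and 1.21 to 1.37. The level of Minichikuri over that of Chikuri_polyA_type was 1.35 in Luc KD against 1.36 in Siwi KD, and the interval for the ratio of these was 0.912 to 1.10. Whether the pair shares reads was not tested, because their sequences were not used here.

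Nagisa (390 nt) had 880 reads and 18.5 RPKM (16.8 to 20.3) in Luc KD, and 1304 reads and 25.8 RPKM (23.8 to 27.8) in Siwi KD. The intervals did not overlap, and the ratio was 1.40 (1.24 to 1.58). It was the least abundant of the 6 elements above 10 RPKM in both conditions.

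Amanoya and BmSE lay at the limit and exchanged places between the conditions. Amanoya, the longest expressed SINE with 834 nt, had 786 reads and 7.71 RPKM (6.97 to 8.51) in Luc KD, and 1214 reads and 11.2 RPKM (10.3 to 12.1) in Siwi KD. Its ratio was 1.45 (1.28 to 1.65), and it was above the limit in Siwi KD also at the lower end of the interval. BmSE had 354 reads and 10.7 RPKM (9.17 to 12.4) in Luc KD, and 332 reads and 9.44 RPKM (8.06 to 11.0) in Siwi KD. Its intervals included the limit in both conditions and overlapped each other, and the ratio of 0.883 (0.715 to 1.09) did not differ from 1 beyond counting error.

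Of the members that stayed at or under 10 RPKM, Kusanagi (421 nt) was nearest to the limit. It had 328 reads and 6.37 RPKM (5.44 to 7.43) in Luc KD, and 216 reads and 3.95 RPKM (3.24 to 4.77) in Siwi KD. With a ratio of 0.620 (0.486 to 0.791), it had the lowest ratio of the 12 members with at least 100 reads over both conditions. Kusanagi is close in length to Minichikuri and SINE-1_BM, and the 3 differed in both level and ratio.

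The members longer than Amanoya were all low. Sayama (952 nt) had 148 reads and 1.27 RPKM (0.999 to 1.60) in Luc KD, and 292 reads and 2.36 RPKM (2.00 to 2.78) in Siwi KD, the highest ratio of the 12 members at 1.86 (1.40 to 2.46). Kohichi (1303 nt) had 146 and 176 reads, or 0.917 and 1.04 RPKM, and its ratio of 1.14 (0.832 to 1.55) was within counting error of 1. Yaocho had 236 reads and 0.330 RPKM (0.273 to 0.395) in Luc KD, and 400 reads and 0.527 RPKM (0.456 to 0.605) in Siwi KD. Its ratio was 1.60 (1.27 to 2.00).

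The remaining 4 members had fewer than 100 reads over both conditions. The tRNA-CR1 element, from the BmTE_RM5 set and 1108 nt long, had 26 reads in Luc KD against 12 in Siwi KD, with a ratio of 0.435 and an interval of 0.165 to 1.14 that included 1. Shirigonomi (279 nt) had 2 reads in each condition, Tenshi had 4 reads in Luc KD against 0 in Siwi KD, and Hikikomori (988 nt) had 0 reads in both. At this depth, a count of 0 allows up to 3 read pairs, which for Hikikomori is 0.0497 RPKM in Luc KD against 0.0468 RPKM in Siwi KD. For Tenshi in Siwi KD it is 0.0340 RPKM. No ratio is given for these last 3, which had at most 2 read pairs in a condition. A lack of reads in both conditions was found for 1 of 16 SINEs, against 22.6% of all transposons and 15.1% of all sequences.

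Levels within the class were therefore very unequal. Bm1 had 67.3% of summed SINE RPKM in Luc KD against 59.4% in Siwi KD. The subclass SBTE, with 4 members, ran from 0 RPKM for Hikikomori to 102 RPKM for Bm1-450bp in Luc KD. The 9 members without a subclass ran from 0.0586 to 239 RPKM. In Luc KD, the counting interval of each of the first 7 elements in the order was apart from that of the next. The intervals of Amanoya and Kusanagi overlapped, as did those of Sayama and Kohichi. In Siwi KD the order of the first 6 was the same, and Amanoya and BmSE, in reversed places, overlapped.

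The expressed SINEs were short. They had 271 to 834 nt, and 10 of the 16 members fell in this range. Across the 12 members with at least 100 reads, Spearman's rho between length and RPKM in Luc KD was -0.69, and across the 8 expressed members it was -0.19. The points share libraries, and length enters RPKM as its divisor, so this is given as a description. Of the 135 transposons of the 4 classes with 271 to 834 nt, the 10 SINEs held 64.5% of summed RPKM in Luc KD against 41.9% in Siwi KD. The 20 LTR transposons in this range held 25.9% and 49.8%, and the 73 LINEs held 1.26% and 1.16%.

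**Figure D2:**
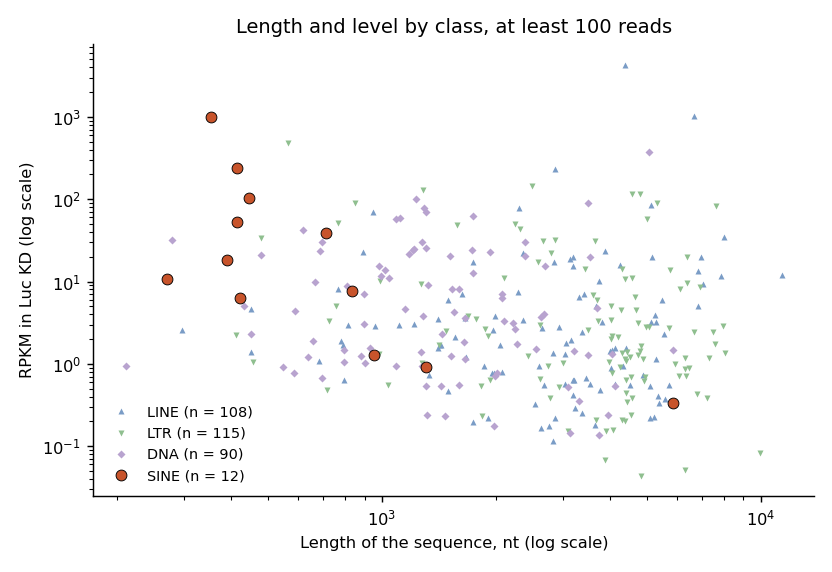
Length of the sequence in nt against RPKM in Luc KD, both on log scales, for the 12 SINEs (orange circles), 108 LINEs, 115 LTR transposons and 90 DNA transposons with at least 100 reads over both conditions. Each point is 1 sequence. The abundant SINEs sit at the left, with Bm1 at 354 nt and 984 RPKM, and Yaocho lies alone among the SINEs at 5851 nt and 0.330 RPKM.

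As a class, SINEs had a lower summed level in Siwi KD, although 8 of the 12 members with at least 100 reads had a higher one. Summed RPKM over the 16 members was 1462 in Luc KD against 1271 in Siwi KD, a ratio of 0.870 (0.857 to 0.883). The sum was carried by Bm1, and without it the direction turned. For the other 15 members the sum was 478 RPKM in Luc KD against 516 RPKM in Siwi KD, a ratio of 1.08 (1.06 to 1.11). Without Bm1 and SINE-1_BM, a choice made after the values were seen, it was 239 and 313 RPKM, a ratio of 1.31 (1.27 to 1.35).

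**Figure D3:**
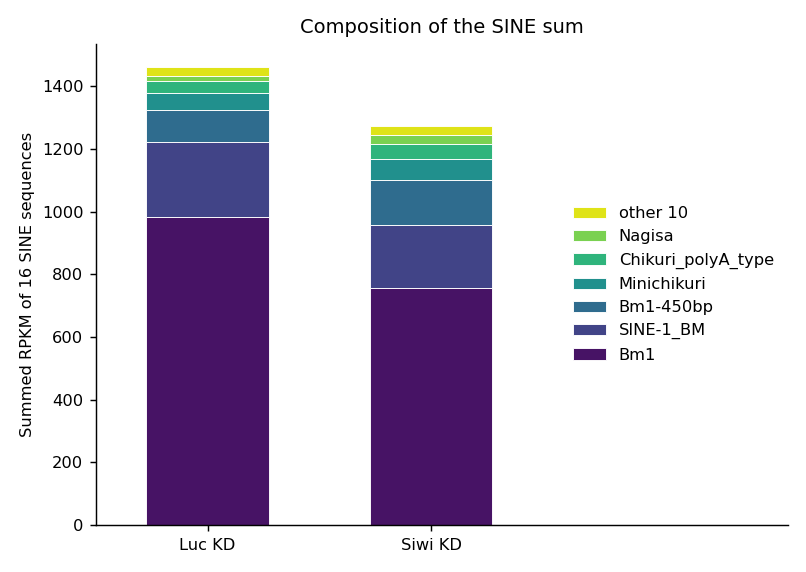
Summed RPKM of the 16 SINEs in Luc KD and Siwi KD, with each bar divided by element and starting at 0. The whole bar is 1462 RPKM in Luc KD against 1271 RPKM in Siwi KD. The Bm1 part is 984 and 755 RPKM, and the Bm1-450bp part is 102 and 142 RPKM.

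Of the 12 members with at least 100 reads, 8 were higher in Siwi KD by RPKM, whereas 4 were lower. In this filter, 51.5% of all sequences and 80.5% of all transposons were higher in Siwi KD. The 4 lower members were Bm1, SINE-1_BM, BmSE and Kusanagi, which summed to 1240 RPKM in Luc KD against 972 RPKM in Siwi KD. The 8 higher members summed to 222 RPKM in Luc KD against 300 RPKM in Siwi KD. The difference was -268 RPKM for the former group and 78.1 RPKM for the latter, which left a net difference of -190 RPKM.

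The counting interval of the ratio lay above 1 for 7 of the 12 members and below 1 for 3 (Bm1, SINE-1_BM and Kusanagi), and included 1 for BmSE and Kohichi. Among all sequences with at least 100 reads, it lay above 1 for 29.2% and below 1 for 28.5%. Among transposons, these shares were 49.5% and 5.87%. Since counting error alone is covered, such an interval does not show that libraries of the 2 conditions would differ again.

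**Figure D4:**
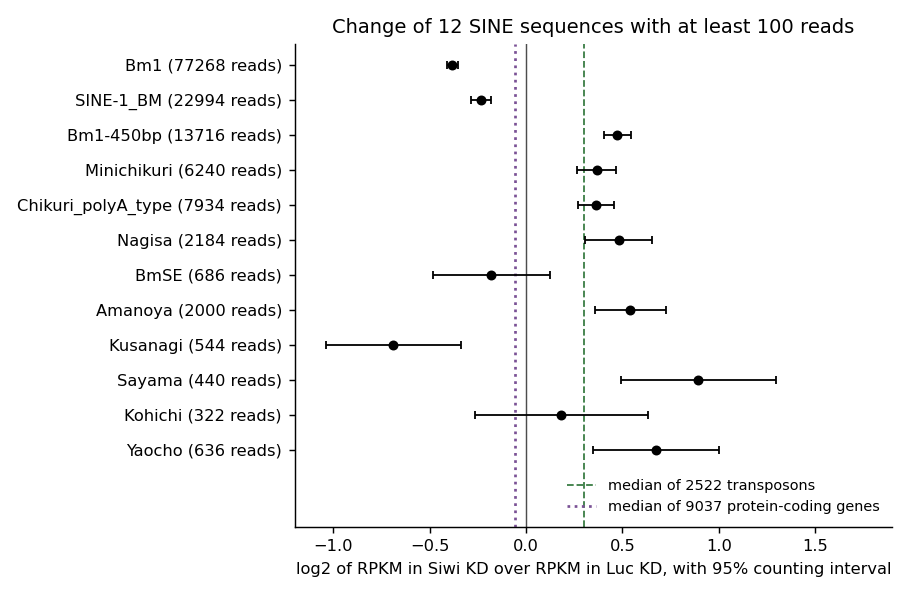
Log2 of the ratio of RPKM in Siwi KD over RPKM in Luc KD for the 12 SINEs with at least 100 reads over both conditions, in order of RPKM in Luc KD, with 95% counting intervals. The solid line is no difference, the dashed line is the median of 2522 transposons (0.30) and the dotted line is that of 9037 protein-coding genes (-0.06). Bm1, SINE-1_BM, BmSE and Kusanagi lie to the left of 0, the other 8 to the right.

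Differences were modest in size. From here on, the fold changes (FCs) of a list are given with a pseudo-count of 1 added to RPKM. On this scale, the log2 FC of the 12 members lay between -0.57 for Kusanagi and 0.57 for Sayama. The pseudo-count lowers the size of values at low levels. Without it, the log2 ratio was -0.69 (-1.04 to -0.34) for Kusanagi and 0.89 (0.49 to 1.30) for Sayama. None (0 of 12) was past a log2 FC of 1 in either direction. Of all 11559 sequences with at least 100 reads, 1.63% were above 1 and 0.441% were below -1, which comes to less than 1 sequence in 12. For transposons the shares were 3.41% and 0.0793%.

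The median log2 FC of the 12 members was 0.28, with quartiles of -0.18 and 0.46. A range of -0.05 to 0.61 around it used the counting error of Yaocho, the larger of those of the 2 middle members. That error belongs to the ratio without the pseudo-count. The range therefore mixes scales, is not an interval of the median, and cannot decide whether the median differs from 0. Over all 15 members with a read, the median was 0.09. It was 0.01 over all sequences, 0.14 over all 2522 transposons and -0.04 over the protein-coding genes. Among the other classes it was 0.15 for LINEs, 0.33 for LTR transposons and 0.31 for DNA transposons. The SINE median was therefore within the range of the other 3 classes. The pseudo-count lowers the size of these values most in lists of low level, such as all transposons (median 1.23 RPKM in Luc KD) and LINEs (1.84 RPKM), against 14.6 RPKM for the 12 SINEs. Without it, the median log2 ratio was 0.36 for SINEs, 0.30 for all transposons, 0.24 for LINEs, 0.68 for LTR transposons and 0.42 for DNA transposons, so that SINEs were close to transposons in general. With the pseudo-count of 1, the median log2 FC of the 8 expressed SINEs was 0.36. It was 0.29 for the 25 expressed LINEs, 0.73 for the 33 LTR and 0.37 for the 33 DNA transposons. Of the 8 expressed SINEs, 5 were higher in Siwi KD, against 333 of 389 expressed transposons and 1142 of 3006 expressed sequences.

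The classes differed in their sums and in the number of large differences. The ratio of summed RPKM was 0.870 for SINEs, 1.50 for LINEs, 2.21 for LTR transposons and 1.24 for DNA transposons. Of these 4 classes, only SINEs had a lower sum in Siwi KD, and this rested on Bm1 (1.08 without it). The 1156 curated transposons without a class also had a lower sum, with 30465 RPKM in Luc KD against 28329 RPKM in Siwi KD. In Luc KD, 1 element (BmTE_RM5-571) held 89.4% of that sum. Of the 205 unclassed members with at least 100 reads, 140 were higher in Siwi KD, and their median log2 FC was 0.11. Single elements weighed on the sums. In Luc KD, the leading element held 67.3% of the SINE sum and 68.6% of the LINE sum (R2Bm). It held 24.9% for LTR transposons and 24.4% for DNA transposons. Protein-coding genes had a ratio of 0.910, and those with 271 to 834 nt had one of 0.887. A log2 FC above 1 was found for 3 of 108 LINEs, 13 of 115 LTR transposons and 4 of 90 DNA transposons, and for 0 of 12 SINEs. The share of members lower in Siwi KD was 4 of 12 for SINEs, 26 of 108 for LINEs, 7 of 115 for LTR transposons and 14 of 90 for DNA transposons. None of these differences between the classes was tested, because the table has no replicates.

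**Figure D5:**
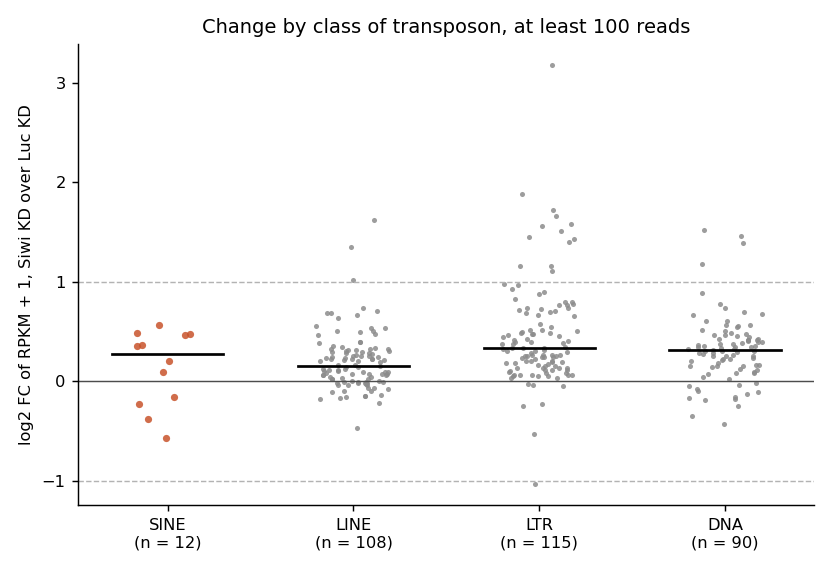
Log2 FC of RPKM + 1, Siwi KD over Luc KD, for SINEs (orange), LINEs, LTR transposons and DNA transposons with at least 100 reads over both conditions. Each point is 1 sequence, spread sideways for display, the black bars are medians, and dashed lines mark 1 and -1. The 12 SINEs lie between -0.57 and 0.57 with a median of 0.28, whereas points above 1 occur in each of the other classes.

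As a consequence of these sums, the part of SINEs among the transposons with 1 of the 4 classes was smaller in Siwi KD. It was 13.0% of summed RPKM in Luc KD against 7.50% in Siwi KD. By reads, which do not divide by length, it was 1.47% and 0.880%. The LTR part was 17.4% and 25.5% of summed RPKM. A share can be lower because other classes were higher. The ratio of the SINE sum itself was 0.870. It was 0.941 when the conditions were scaled to protein-coding reads and 0.956 when scaled to the median ratio of expressed protein-coding genes. Scaled to all counted reads, it was 0.841.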

How the data were processed

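Total RNA was sequenced from BmN4 cells in 2 conditions with 2 libraries each (77614516 and 68702400 reads for Luc KD, 81135072 and 77184922 reads for Siwi KD). After error correction and trimming, the authors dropped reads under 36 nt. STAR was used to map the rest first to the genome, then to gene models plus transposons, in random and multiple counting modes with up to 4% mismatches. The deposited counts give the number of sense reads on each sequence, summed by the authors over the replicates and not normalized. For RPKM, also deposited, the authors divided these by length and by the reads mapped to the genome (122229138 for Luc KD, 129779634 for Siwi KD) and added no pseudo-count. The library kit kept the strand, and ribosomal RNA was depleted with a kit labelled for human, mouse and rat. How far it depleted ribosomal RNA of the silkworm was not tested here.

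SINE rows were found by the class after the # sign. Ratios are of deposited RPKM, with 95% intervals from Poisson counts of read pairs. Log2 FCs use a pseudo-count of 1. A minimum of 100 reads over both conditions was required for lists. All SINEs above 10 RPKM, near this limit, or longest or shortest were to be named. The other members were named after their values were seen. Members and lists were chosen with earlier results of these data known. No test was run, since each condition has 1 merged value. One read pair was worth 0.0462 RPKM for Bm1 in Luc KD and 0.00280 RPKM for Yaocho. Calculations used pandas 2.3.3, numpy 2.4.6 and scipy 1.17.1 in Python 3.11.15, with matplotlib 3.10.9 for figures, and the ratios and intervals were tested on simulated counts. Alternatives covered the scaling, the pseudo-count, the filter, the threshold, the measure summed and the members included. SINE sequences and genome positions were not used here.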

Additional observations from a re-analysis of the deposited data

How the results depend on the processing

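The 16 SINEs are described from 1 merged value per condition. No paired analysis was possible because the columns are merged and carry no replicate numbers, and leaving out each replicate in turn was not run for the same reason. Short sequences have few positions at which a read pair can lie, which RPKM does not take into account, and similar elements can share reads.

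The ratio of summed SINE RPKM, 0.870, was 0.941 when scaled by protein-coding reads, 0.841 by all reads counted, 0.956 when the median ratio of expressed protein-coding genes was set to 1, and 0.899 from reads in place of RPKM. It was 1.08 without Bm1 and 1.31 without Bm1 and SINE-1_BM, which turned its direction. Scaling by protein-coding reads or by their median shifts every log2 ratio by 0.11 or 0.14. The median log2 FC of the 12 members was 0.08 with a pseudo-count of 10, 0.36 with one of 0.1, and 0.24 to 0.37 over the 3 other scalings. With other members included it was 0.09 (all with a read), 0.35 (without Bm1) and 0.36 (expressed members, or without members over 1000 nt). The number of members higher in Siwi KD was 8 under each scaling and 5 of the 8 expressed members. By reads, the Bm1 share was 61.6% in the control, against 52.6% in Siwi KD. The number above the expression limit was 9 at 5 RPKM and 6 at 20 RPKM, and 0 members passed a log2 FC of 1 under any pseudo-count or scaling. The log2 FC of Bm1 was -0.43 to -0.25 over the 3 other scalings, that of SINE-1_BM -0.28 to -0.09 and that of BmSE -0.21 to -0.04. Leaving out members over 1000 nt or the pair of Bm1 and SINE-1_BM was chosen after seeing the data.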
